A study of Mus musculus with 16 samples.

Results

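Ccl17 and Ccl22 encode a pair of secreted chemokines that share the receptor CCR4. They are 2 of the 55487 genes in the count table, were followed through all 16 samples, and were chosen by their response to ruxolitinib in earlier results of these data: they lie side by side on mouse chromosome 8, and their mRNAs moved in opposite directions when the inhibitor was added to tumor-conditioned medium. That contrast is therefore given as a description, without a test. The tests concern the other contrasts, that is medium with against medium without tumor factors, the addition of a second inhibitor, and the time label.

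CCL17, also called TARC, and CCL22, also called MDC, are made mainly by macrophages and dendritic cells. CCR4 is carried by Th2 cells, regulatory T cells and skin-homing T cells, and in tumors CCL22 from macrophages is known for drawing in regulatory T cells. Cytokines reach these genes by several routes. IL-4 and IL-13 act through JAK1, JAK3 or TYK2 and STAT6, GM-CSF acts through JAK2 and STAT5 and, in myeloid cells, through the factor IRF4 and the histone demethylase JMJD3 (encoded by Kdm6b), and TNF and microbial products act through the IKK kinases, which release NF-κB from its inhibitor IκB.

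The samples were bone marrow-derived macrophages (BMDMs), cells grown in culture from the bone marrow of wild-type Balb/c mice of 8 weeks. All groups share the strain, genotype, age and culture, and the methods describe serum starvation before treatment. DMEM stands for medium without tumor factors (2 samples), and DMEM + Rux for the same medium with ruxolitinib, an inhibitor of JAK1 and JAK2 (3 samples). CM stands for conditioned medium of 4T1 cells, a mouse mammary carcinoma line, so that the macrophages met soluble tumor factors and no tumor cells (3 samples). The methods describe growth of 4T1 cells in RPMI and do not state the base of the collected medium. CM and DMEM may therefore differ in base medium as well as in tumor factors, which cannot be told apart here. CM + Rux had 0.5 µM ruxolitinib added from the serum starvation onward and carries a label of 4 h (3 samples), and CM + Rux 2 h differs from it by a label of 2 h, whose meaning is not stated in the text of the study (2 samples, numbered 2 and 3). CM + Rux + IKK-16 had in addition 0.8 µM IKK-16, an inhibitor of the IKK kinases (3 samples). For RNA the methods give 4 h of treatment with CM and ruxolitinib, while the labels of CM and of CM + Rux + IKK-16 give no time. Comparisons of CM + Rux 2 h with CM or DMEM + Rux may therefore mix time with treatment. The dose and time of ruxolitinib in DMEM are not stated. Whether the replicates came from separate mice or cultures is not given in the sources used here, so p-values measure the spread between these samples, which may be technical.

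RNA was measured by sequencing of stranded mRNA libraries, and the table held between 18449388 and 46215853 counted fragments per sample. Levels are CPM, the counts scaled to a common library total, with totals adjusted by relative log expression (RLE). The 10 macrophage markers summed to between 40500 and 57500 CPM in every sample. Of the 10 dendritic cell markers, 5 passed the expression filter, and their summed level moved with CM: the list stood at 155 to 254 CPM in the 5 samples without CM and at 703 to 2410 CPM in the 11 samples with it, most of it Cd83, an activation marker that macrophages also express. The genes Flt3, Xcr1, Clec9a, Cd209a and Siglech, which mark dendritic cells or their subtypes, stayed below the filter, with at most 24 counts in any sample (Cd209a). The dendritic cell factors Zbtb46 and Batf3 passed it, at 1.25 and 0.717 CPM in DMEM and at 1.45 and 1.44 CPM in CM on average. Ccr7 and Fscn1 also passed and averaged 0.324 and 1.23 CPM in DMEM and 3.58 and 10.6 CPM in CM. In the edgeR test used below, CM called 4 of the 5 higher than DMEM (Batf3, Ccr7, Cd83 and Fscn1) and 0 lower. Over all tested genes, 20.9% were called higher and 24.1% lower. With the replicate number added to that test as a block, Batf3 was not called. The lists for other cells summed to at most 20.9 CPM for fibroblasts, 14.8 for T and NK cells, 3.32 for neutrophils, 1.61 for epithelial cells, 1.23 for B cells and 0.163 for mast cells and basophils, and the epithelial Epcam, Krt14, Krt5, Cldn4 and Esrp1 had at most 3 counts in every sample. The part of dendritic-like cells in the results below was not tested. In bulk RNA, fewer cells of a type and less RNA per cell cannot be told apart.

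Ccl17 (ENSMUSG00000031780) spans chr8:94810453-94812036 and Ccl22 (ENSMUSG00000031779) spans chr8:94745590-94751699, both on the plus strand of GRCm38 and 58.8 kb apart. The exons counted for Ccl17 cover 514 bases and those for Ccl22 cover 2325 bases, so that levels of the 2 genes can be compared only per kilobase. The bases just upstream of each gene are shown because the genes differ there in the letters of a STAT motif. They come from RefSeq promoter windows of GRCm38.p6, plus strand, 5′ to 3′, and capitals mark matches to the motifs TTCNNNGAA and TTCNNNNGAA, which read the same on both strands and do not overlap here. The Ccl17 stretch (chr8:94810203-94810452, 250 bases) ends at the base before the gene, and the Ccl22 stretch (chr8:94745434-94745589, 156 bases) ends at the base before the Ensembl gene start, which lies upstream of the RefSeq start that the searched window of 250 bases was set by.
Ccl17: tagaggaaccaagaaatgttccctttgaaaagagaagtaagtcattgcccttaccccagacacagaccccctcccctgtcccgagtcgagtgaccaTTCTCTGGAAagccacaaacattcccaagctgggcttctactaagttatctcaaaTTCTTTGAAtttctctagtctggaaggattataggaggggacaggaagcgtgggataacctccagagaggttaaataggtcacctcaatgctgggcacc
Ccl22: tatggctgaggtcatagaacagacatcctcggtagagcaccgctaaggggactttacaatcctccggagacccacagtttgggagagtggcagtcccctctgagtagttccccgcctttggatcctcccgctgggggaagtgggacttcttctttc
The Ccl17 window held 1 match to each spacing, TTCTCTGGAA at chr8:94810299-94810308, which begins 154 bases before the start, and TTCTTTGAA at chr8:94810354-94810362, which begins 99 bases before it. The Ccl22 window held no match to either. Over all 32851 promoters of the reference table, 5.85% held the spacing of 4 and 7.02% the spacing of 3. Neither window matched the NF-κB consensus (found in 3.9% of promoters), the TATA motif TATAAA (12.4%) or the E-box CANNTG (66.2%). A match is a description of letters, not evidence of binding, and no match says only that these letters are not in this window.

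Tumor-conditioned medium raised both chemokines. Ccl17 was at 0 counts in both DMEM samples, where a count of 0 allows a level of up to 0.123 CPM, and at 17.4, 30.3 and 27.3 CPM in the 3 CM samples, a mean of 25.0 ± 6.76 (SD, n = 3). All CM samples thus lay far above the detection limit, and none of the DMEM samples reached it. The rise was at least 204-fold (edgeR quasi-likelihood test, adjusted p = 7.36e-05). Ccl22 stood at 1.18 and 0.736 CPM in DMEM, from 40 and 18 counts, and at 92.0, 84.6 and 162 CPM in CM, a mean of 113 ± 42.7 (SD, n = 3). The groups did not overlap, and Ccl22 was 114-fold higher in CM (log2 fold change 6.83, SE 0.483, adjusted p = 6.44e-08). Both genes passed the expression filter only through samples with CM, where they were high. The CM samples are also among those by which the genes were chosen. The p-values for CM against DMEM carry both limits. As background, CM raised 20.9% and lowered 24.1% of the 12372 genes that entered the test, a call meaning an adjusted p under 0.05 and a log2 fold change beyond 0.5. Per kilobase the chemokines reached nearly the same level in CM, with means of 48.6 CPM per kb for Ccl17 and 48.5 for Ccl22, whereas in DMEM only Ccl22 was above 0, at 0.412 CPM per kb.

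**Figure D1:**
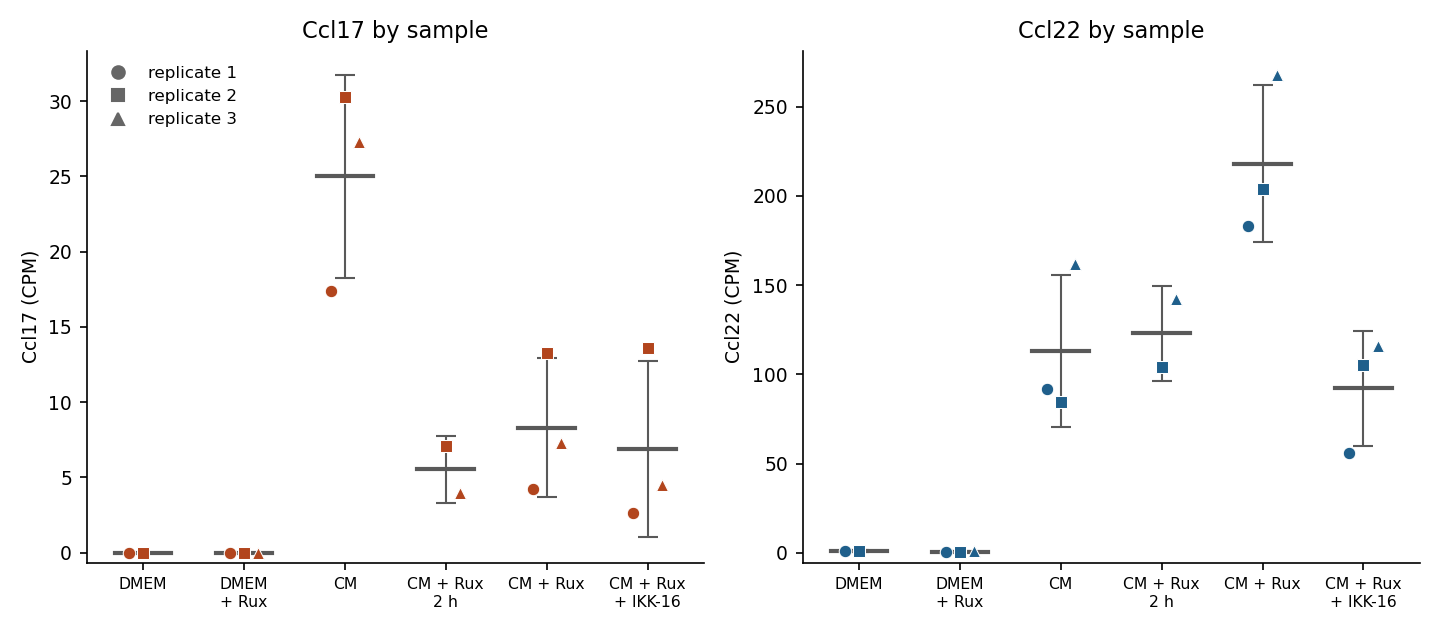
Levels of Ccl17 (left) and Ccl22 (right) in CPM on linear axes that differ between the panels. Each symbol is a sample and its shape gives the replicate number, wide bars are means and whiskers are ±1 SD. Ccl17 is highest in CM (17.4 to 30.3 CPM) and Ccl22 in CM + Rux (183 to 268 CPM), and both are near 0 without CM.

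CM also raised both genes when ruxolitinib was in both media. In DMEM + Rux, Ccl17 was again at 0 counts in all 3 samples, which allows up to 0.138 CPM, and Ccl22 was at 0.415, 0.491 and 0.744 CPM, from 9, 22 and 23 counts. In CM + Rux, Ccl17 was at 4.26, 13.3 and 7.32 CPM, at least 60.0-fold higher (adjusted p = 7.49e-05), and Ccl22 was at 183, 204 and 268 CPM, 391-fold higher (log2 fold change 8.61, SE 0.436, adjusted p = 1.71e-09). In that contrast 22.3% of tested genes were called higher. With IKK-16 added as well, the rise over DMEM + Rux was at least 49.9-fold for Ccl17 (log2 bound 5.64, or 4.69 without IKK-16 replicate 2, adjusted p = 0.000158) and 164-fold for Ccl22 (log2 fold change 7.36, SE 0.428, adjusted p = 1.04e-08), against 17.8% of tested genes called higher. At the 2 h label the same rise was at least 40.0-fold for Ccl17 (adjusted p = 0.000324) and 220-fold for Ccl22 (log2 fold change 7.78, SE 0.441, adjusted p = 7.12e-09), against 18.4% of tested genes. The comparisons of CM + Rux + IKK-16 and of CM + Rux 2 h with DMEM + Rux use no sample of CM or of CM + Rux. The genes were still chosen with earlier results of these data known, and they passed the filter only through samples with CM. The CM + Rux samples of the first comparison are also among those by which the genes were chosen. The 3 comparisons with DMEM + Rux share those control samples, so they are not independent of each other.

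The opposite responses to ruxolitinib in CM, which led to the choice of these genes, looked as follows. Ccl17 fell from 17.4, 30.3 and 27.3 CPM in CM to 4.26, 13.3 and 7.32 CPM in CM + Rux, and every CM + Rux sample lay below every CM sample. The fitted log2 difference was -1.59 (SE 0.553), 3.01-fold lower with ruxolitinib. Ccl22 went from 92.0, 84.6 and 162 CPM to 183, 204 and 268 CPM, and every CM + Rux sample lay above every CM sample. The fitted log2 difference was 0.951 (SE 0.276), 1.93-fold higher. Between samples with the same replicate number, the log2 ratio of CM + Rux to CM was -2.03, -1.19 and -1.90 for Ccl17 and 0.99, 1.27 and 0.73 for Ccl22. Ruxolitinib called few genes in CM, 1.2% of those tested as higher and 2.13% as lower, or 2.47% and 3.56% with the replicate block, since same-numbered samples deviated together in this contrast. All p-values given for it are without the block unless it is named, and nothing is read from the place of the pair among them. In DMEM, where Ccl17 was at 0 counts with and without ruxolitinib, Ccl22 was at 0.959 ± 0.315 CPM without (SD, n = 2) and 0.550 ± 0.172 with it (SD, n = 3), and the samples overlapped.

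The ratio of Ccl22 to Ccl17 within a sample does not depend on library scaling. Per kilobase it was 1.17, 0.616 and 1.31 in the CM samples 1, 2 and 3, and 9.49, 3.38 and 8.06 in the CM + Rux samples of the same numbers. Ccl22 mRNA per kilobase was thus close to Ccl17 mRNA in CM and above it in each sample with ruxolitinib. Matched by replicate number, the log2 ratio was higher in CM + Rux by 3.02, 2.45 and 2.62. Replicate 2 had the highest Ccl17 level and the lowest ratio in each of the 4 groups with CM.

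**Figure D2:**
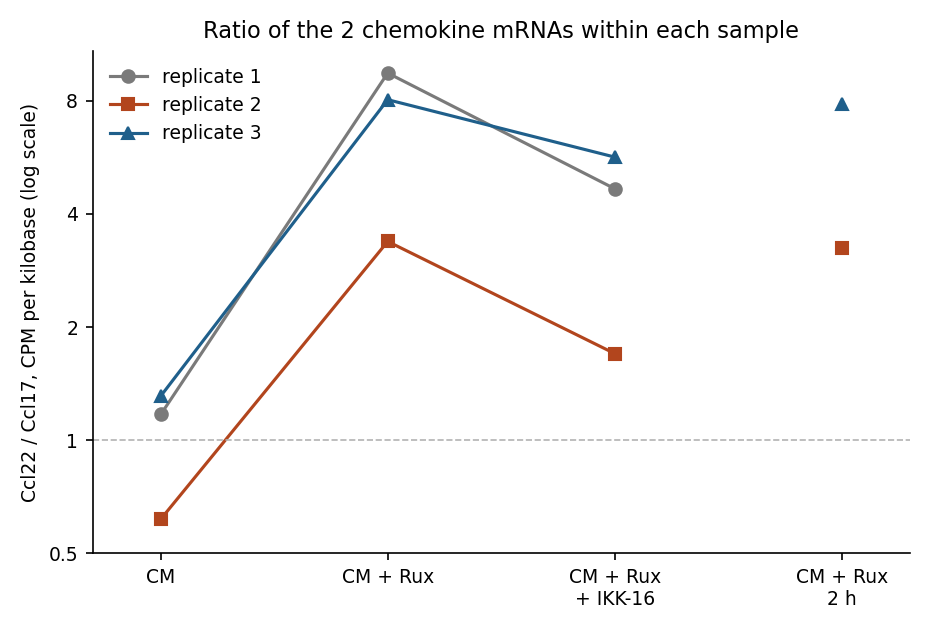
Ratio of Ccl22 to Ccl17, both in CPM per kilobase, in each of the 11 samples with CM, on a log axis. Symbols and colors give the replicate number, lines join samples of the same number except those at the 2 h label, and the dashed line marks equal levels. The ratio lies between 0.616 and 1.31 in CM and between 1.70 and 9.49 in the samples with ruxolitinib, and replicate 2 is lowest in each group.

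IKK-16 lowered Ccl22 in the presence of ruxolitinib. Ccl22 was at 55.7, 105 and 116 CPM in CM + Rux + IKK-16, below all 3 samples of CM + Rux (183, 204 and 268 CPM). The difference was 2.36-fold (log2 fold change -1.24, SE 0.278, adjusted p = 0.009 by edgeR), in a contrast in which 4.07% of tested genes were called higher and 3.66% lower. Ccl17 was at 2.63, 13.6 and 4.51 CPM with IKK-16, within and around the values without it (4.26, 13.3 and 7.32 CPM). Its log2 fold change was -0.286 (SE 0.558, adjusted p = 0.788), and the sign changed when single samples were left out, from -1.23 without IKK-16 replicate 2 to 0.27 without CM + Rux replicate 2. The CM + Rux samples of this contrast are also those by which the genes were chosen. By replicate number, the log2 ratio of CM + Rux + IKK-16 to CM + Rux was -1.72, -0.96 and -1.21 for Ccl22 and -0.70, 0.03 and -0.70 for Ccl17. Of the 5 tested dendritic cell markers, 2 were also called lower with IKK-16, Ccr7 (log2 fold change -1.42) and Fscn1 (-2.19). With ruxolitinib in CM edgeR called 0 of the 5, DESeq2 called Batf3 lower, and the replicate block called Batf3 lower and Ccr7 higher. Their part in the result was not tested.

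Whether the chemokines differed in their response to IKK-16 could not be decided, since the permutation test used cannot give a p under 0.1. The ratio in CM + Rux also belongs to the values by which the genes were chosen. The ratio of Ccl22 to Ccl17 per kilobase with IKK-16 was 4.67, 1.70 and 5.67, and its mean log2 value was lower than in CM + Rux by 0.84, with overlapping samples (exact two-sided permutation test, p = 0.3, the smallest possible being 0.1). Matched by number the log2 ratio differed by -1.02, -0.99 and -0.51, lower in 3 of 3 pairs. The permutation test above did not use this matching, although same-numbered samples deviated together in this contrast. A paired form of it, given below with the processing alternatives, cannot decide with 3 pairs either. Compared with CM alone, the IKK-16 samples held less Ccl17 in every sample (log2 difference -1.87, SE 0.558) and an overlapping range of Ccl22 (log2 difference -0.294, SE 0.275), both given without a test because ruxolitinib was added.

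At the 2 h label both chemokines had lower means than at 4 h, and neither difference passed the test. The CM + Rux samples of this contrast, and their ratios, are also among those by which the genes were chosen. Ccl22 was at 104 and 142 CPM, under the lowest CM + Rux sample at 183 CPM, with a log2 fold change of -0.826 (SE 0.314) that missed the threshold (edgeR, adjusted p = 0.0519). Ccl17 was at 7.09 and 3.97 CPM, overlapping CM + Rux (4.26 to 13.3 CPM), with a log2 fold change of -0.559 (SE 0.648, adjusted p = 0.527). With the replicate number as a block both would be called, Ccl17 at -0.88 (adjusted p = 0.0362) and Ccl22 at -1.0 (adjusted p = 0.000395), but with 2 pairs the numbers are not shown to pair these samples. In this contrast 12.6% of tested genes were called higher and 10.7% lower. DESeq2 put Ccl22 past the threshold (log2 fold change -0.82, adjusted p = 0.0295), so this call depends on the processing. Set side by side by number alone, 2 h against 4 h gave log2 ratios of -0.91 and -0.88 for Ccl17 and -0.96 and -0.91 for Ccl22. For numbers 2 and 3 the ratio of Ccl22 to Ccl17 per kilobase was 3.25 and 7.86 at 2 h beside 3.38 and 8.06 at 4 h. Replicate 1 of CM + Rux, which has no 2 h sample, was at 9.49. Over all samples the mean log2 ratios differed by -0.33 (exact two-sided permutation test, p = 0.4, the smallest possible being 0.2). With so few samples the test cannot decide whether the ratio changed. Of the 5 tested dendritic cell markers 3 were called higher at 2 h than at 4 h and 0 lower, Zbtb46 from 1.89 ± 0.166 to 10.1 ± 3.05 CPM, Cd83 from 1180 ± 392 to 2310 ± 101 CPM and Batf3 from 0.566 ± 0.0966 to 1.51 ± 0.1 CPM (SD, n = 3 and 2), and their part in the values of the chemokines was not tested. Against CM alone, Ccl17 at the 2 h label was lower in both samples (log2 difference -2.14, SE 0.667) and Ccl22 overlapped (log2 difference 0.125, SE 0.307).

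Put in order of mean level, Ccl17 ran from CM (25.0 CPM) through CM + Rux (8.30), CM + Rux + IKK-16 (6.90) and CM + Rux 2 h (5.53) to DMEM and DMEM + Rux at 0 counts. CM did not overlap CM + Rux, whereas CM + Rux overlapped CM + Rux + IKK-16 and the latter overlapped CM + Rux 2 h. Ccl22 ran from CM + Rux (218 CPM) through CM + Rux 2 h (123), CM (113) and CM + Rux + IKK-16 (92.1) to DMEM (0.959) and DMEM + Rux (0.550). CM + Rux did not overlap CM + Rux 2 h, and CM + Rux + IKK-16 did not overlap DMEM. CM overlapped both CM + Rux 2 h and CM + Rux + IKK-16, and DMEM overlapped DMEM + Rux.

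**Figure D3:**
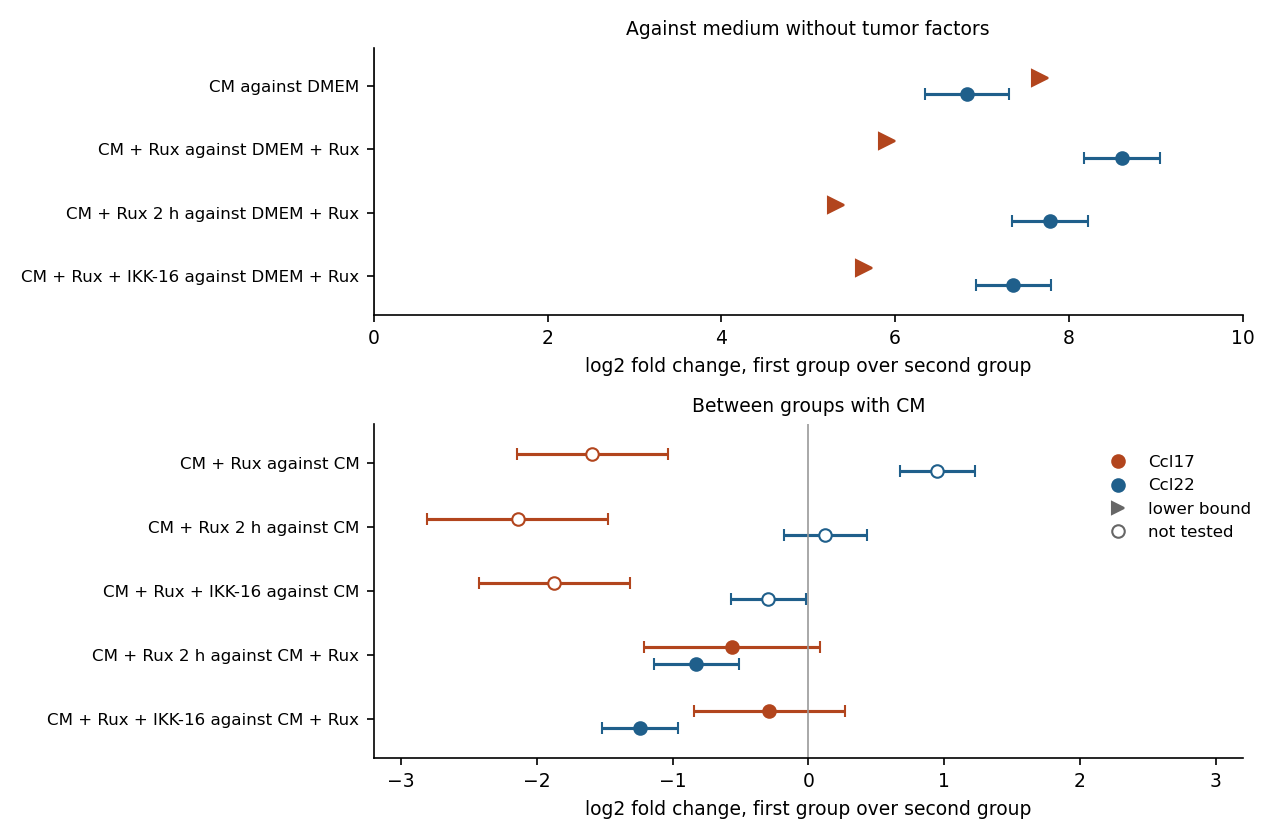
Log2 fold changes of Ccl17 (orange) and Ccl22 (blue), with whiskers of ±1 SE from the edgeR fit. Triangles are lower bounds of Ccl17 against media in which it was at 0 counts, and open circles are contrasts that add ruxolitinib to CM, which were not tested. Against media without CM the Ccl22 values lie between 6.83 and 8.61, and against CM + Rux the value for IKK-16 is -1.24 for Ccl22 and -0.286 for Ccl17.

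The chromosomal neighbors included a further chemokine gene that rose with CM. Within 250 kb of the span from Ccl22 to Ccl17 the table lists 24 other genes, and 12 of them passed the filter. In CM against DMEM 5 of the 12 were called higher (Cx3cl1, Cpne2, Ciapin1, Rspry1 and Polr2c) and 1 lower (Coq9), beside 20.9% and 24.1% of all tested genes. The largest of these log2 fold changes, 2.25 (SE 0.375, adjusted p = 0.000142 by edgeR), belonged to Cx3cl1, the gene of the chemokine fractalkine that acts on CX3CR1 and lies between the pair. Cx3cl1 resembled Ccl22 in direction: it averaged 12.0 ± 3.38 CPM in CM and 32.5 ± 6.13 in CM + Rux (SD, n = 3 each), a log2 fold change of 1.43 (SE 0.283, adjusted p = 0.00888), and all its CM + Rux samples lay above its CM samples. With IKK-16 Cx3cl1 averaged 22.2 ± 7.69 CPM (log2 fold change -0.55, SE 0.273, adjusted p = 0.204), which passed with the replicate block (-0.58, SE 0.174, adjusted p = 0.024). Ruxolitinib in CM lowered 1 further neighbor, Nlrc5, which encodes a regulator of MHC class I genes (log2 fold change -0.65, SE 0.0877, adjusted p = 0.000634). Ruxolitinib thus called 1 of the 12 higher and 1 lower, beside 1.2% and 2.13% of all tested genes. IKK-16 called 0 of the 12 by edgeR without the block, where 4.07% of all tested genes were called higher and 3.66% lower.

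**Figure D4:**
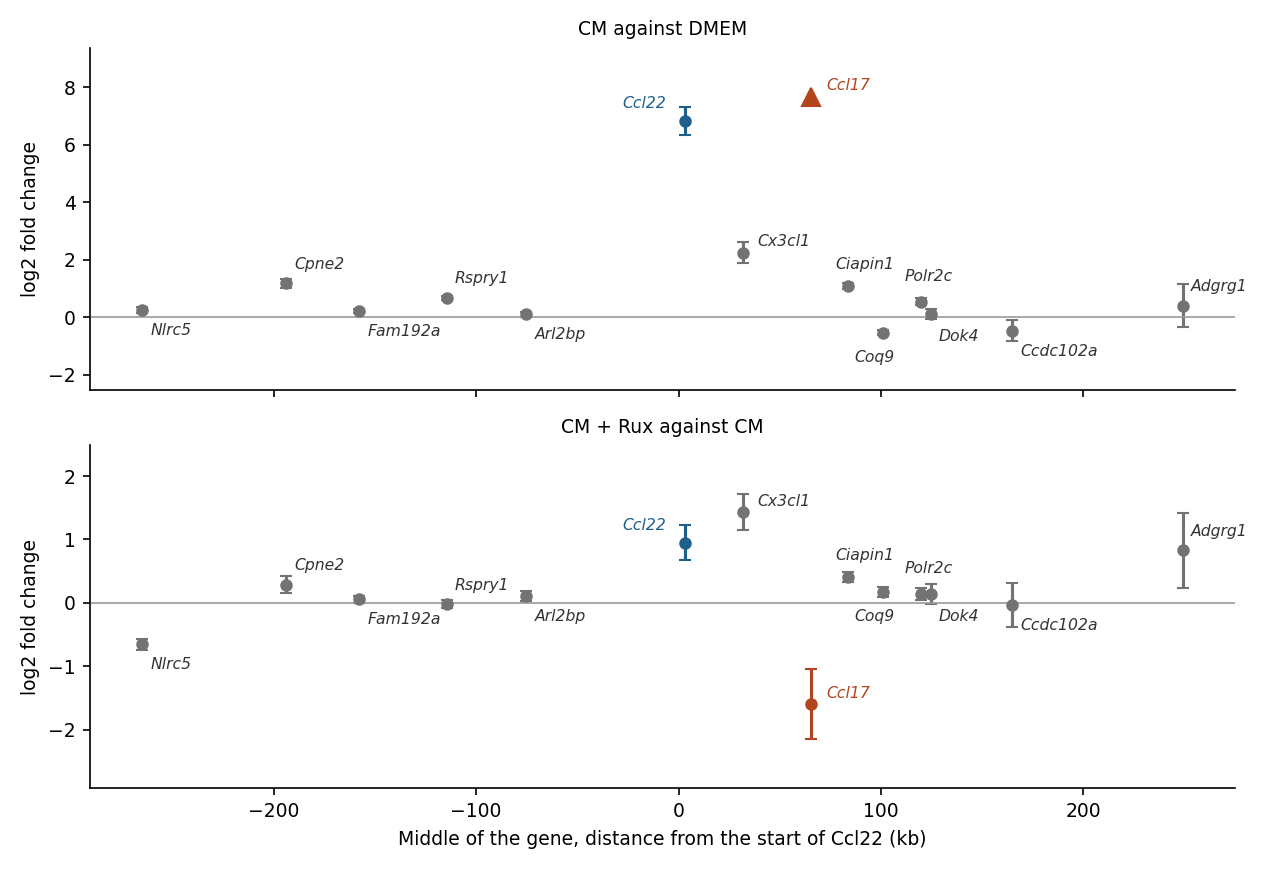
Log2 fold changes of the 14 tested genes around Ccl22 and Ccl17, by the distance of the middle of each gene from the start of Ccl22 in kb. The upper plot shows CM against DMEM and the lower one CM + Rux against CM, whiskers are ±1 SE, and the triangle is the lower bound for Ccl17. Ccl22, Cx3cl1 and Ccl17 stand out upward in the upper plot, and in the lower one Ccl22 and Cx3cl1 lie at 0.951 and 1.43 and Ccl17 at -1.59.

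Partners of the chemokines outside these macrophages were hardly seen. The receptor gene Ccr4, the scavenging receptor gene Ackr2 and Dpp4, whose protease trims CCL22, had at most 4, 2 and 15 counts in any sample, and 0 of the 3 passed the filter. Il4 had 0 counts in every sample and Il13 at most 1, so that any IL-4 or IL-13 transcript in these cells was below detection at this depth. Csf2, the gene of GM-CSF, averaged 0.0618 ± 0.0248 CPM in CM, 0.962 ± 0.238 in CM + Rux and 0.0883 ± 0.105 in CM + Rux + IKK-16 (SD, n = 3 each), and 5.74 ± 2.62 CPM at the 2 h label (SD, n = 2). Its samples in CM held at most 3 counts each, so no fold is given.

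Most tested genes of the GM-CSF and IL-4 routes, but not all, rose with CM. Of 20 listed genes 17 were tested, and CM called 11 of them higher and 0 lower, with a median log2 fold change of 1.24 beside 0 for all tested genes, of which 20.9% were called higher. Il4ra, the chain shared by the IL-4 and IL-13 receptors, went from 46.0 ± 8.30 CPM (SD, n = 2) to 963 ± 225 (SD, n = 3), a log2 fold change of 4.39 (SE 0.342, adjusted p = 1.55e-07). Csf2rb, the signaling chain of the GM-CSF receptor, rose by 3.12 (SE 0.152, adjusted p = 2.75e-09) and Kdm6b by 4.99 (SE 0.312, adjusted p = 2.32e-08) on the log2 scale. Irf4 rose less, from 3.99 ± 1.30 to 9.04 ± 0.23 CPM (log2 fold change 1.20, SE 0.292, adjusted p = 0.00269), while Stat6 was at 364 and 363 CPM and Csf2ra, the other chain of the GM-CSF receptor, at 174 and 163 CPM. Adding ruxolitinib to CM called 1 of the 17 higher (Csf2) and 3 lower (Il4ra, Il13ra1 and Jak3), with a median of -0.11, beside 1.2% and 2.13% of all tested genes. Il4ra fell to 432 ± 137 CPM (log2 fold change -1.16, SE 0.251, adjusted p = 0.0162), whereas Irf4 stood at 14.5 ± 4.72 CPM (log2 fold change 0.69, adjusted p = 0.135, or 0.66 and 0.0267 with the replicate block) and Kdm6b at 211 ± 45.8 CPM (log2 fold change -0.11, adjusted p = 0.909). IKK-16 called 3 lower (Csf2, Jak2 and Stat5a) and 0 higher, beside 3.66% and 4.07% of all tested genes, and with the replicate block Il4ra also passed (log2 fold change -0.61, adjusted p = 0.00196). At the 2 h label 5 were higher than at 4 h, among them Irf4 at 33.9 ± 9.50 CPM (log2 fold change 1.22, SE 0.251, adjusted p = 0.0018) and Kdm6b at 457 ± 60.9 CPM (log2 fold change 1.12, SE 0.235, adjusted p = 0.00213), and 1 was lower (Il13ra1), beside 12.6% and 10.7% of all tested genes.

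The JAK-STAT and NF-κB feedback genes, which are themselves targets of those pathways, were read in the same libraries. Of 7 JAK-STAT feedback genes CM called 6 higher and 1 (Bcl6) lower, with a median log2 fold change of 4.76, beside 20.9% and 24.1% of all tested genes. Ruxolitinib in CM lowered 2 of them, Socs2 from 11.4 ± 2.88 to 3.07 ± 1.47 CPM (log2 fold change -1.90, SE 0.401, adjusted p = 0.0137) and Cish, a STAT5 target, from 135 ± 12.4 to 64.7 ± 20.5 CPM (log2 fold change -1.05, SE 0.233, adjusted p = 0.018), and called 0 higher. Socs3 stood at 1430 ± 445 CPM in CM + Rux beside 2110 ± 419 in CM (log2 fold change -0.56, adjusted p = 0.56). IKK-16 added to ruxolitinib called 3 of the 7 lower (Socs1, Cish and Bcl6) and 0 higher, with a median of -0.83. Over all tested genes, 3.66% were called lower and 4.07% higher in that contrast. With the replicate block Socs2 was called higher (log2 fold change 0.64, adjusted p = 0.0442). Of 14 NF-κB feedback genes 14 were called higher in CM than in DMEM. Ruxolitinib in CM called 0 in either direction by edgeR and by DESeq2, with a median of 0.26, where the shares over all tested genes were 1.2% higher and 2.13% lower. IKK-16 added to ruxolitinib called 9 of the 14 lower and 0 higher, with a median of -0.64, beside 3.66% and 4.07% of all tested genes. Among them Nfkbia, which encodes IκBα, fell from 955 ± 110 to 533 ± 103 CPM (log2 fold change -0.84, SE 0.166, adjusted p = 0.00465) and Tnfaip3, which encodes the inhibitor A20, from 675 ± 129 to 333 ± 55.4 CPM (log2 fold change -1.02, SE 0.181, adjusted p = 0.00259).

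Most other CC chemokine genes that could be tested rose with CM. Of 17 listed genes 9 passed the filter, and CM called 8 of them higher and 0 lower than DMEM, with a median log2 fold change of 2.70, beside 20.9% and 24.1% of all tested genes. Adding ruxolitinib to CM called 0 of the 9 in either direction by edgeR, with a median of -0.08, where 1.2% and 2.13% of all tested genes were called. DESeq2 called 1 of the 9 lower (Ccl24), and so did the replicate block (Ccl6, log2 fold change -0.64, adjusted p = 0.000411). IKK-16 called 4 lower, Ccl3, Ccl4, Ccl5 and Ccl24, beside 3.66% of all tested genes. Ccl5 fell the most of these, from 461 ± 76.6 to 111 ± 40.8 CPM (log2 fold change -2.06, SE 0.263, adjusted p = 0.000304). Ccl2, the ligand of CCR2, was at 123 ± 90.4 CPM without and 258 ± 202 CPM with IKK-16 (log2 fold change 1.06, SE 0.622, adjusted p = 0.285, or 1.07, 0.300 and 0.0175 with the replicate block). Of 14 genes known to respond to IL-4 in macrophages, 10 were tested. CM called 6 higher (Arg1, Pdcd1lg2, Ccl24, Il4i1, Tgm2 and Tfec) and 1 lower (Clec10a), beside 20.9% and 24.1% of all tested genes. Retnla, Chil3 and Alox15 had at most 4, 1 and 6 counts in any sample. Ruxolitinib in CM called 1 of the 10 higher (Ch25h) and 2 lower (Mrc1 and Pdcd1lg2), beside 1.2% and 2.13% of all tested genes, and the replicate block also called Arg1 lower (log2 fold change -2.29, adjusted p = 1.02e-05). Pdcd1lg2, which encodes the PD-1 ligand PD-L2, went from 1.72 ± 0.339 to 0.262 ± 0.0697 CPM (log2 fold change -2.64, SE 0.319, adjusted p = 0.000267). IKK-16 added to ruxolitinib called 3 of the 10 lower (Ccl24, Il4i1 and Ch25h) and 0 higher, beside 3.66% and 4.07% of all tested genes. With the replicate block Tfec was also called lower (log2 fold change -0.62, adjusted p = 0.0104).

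**Figure D5:**
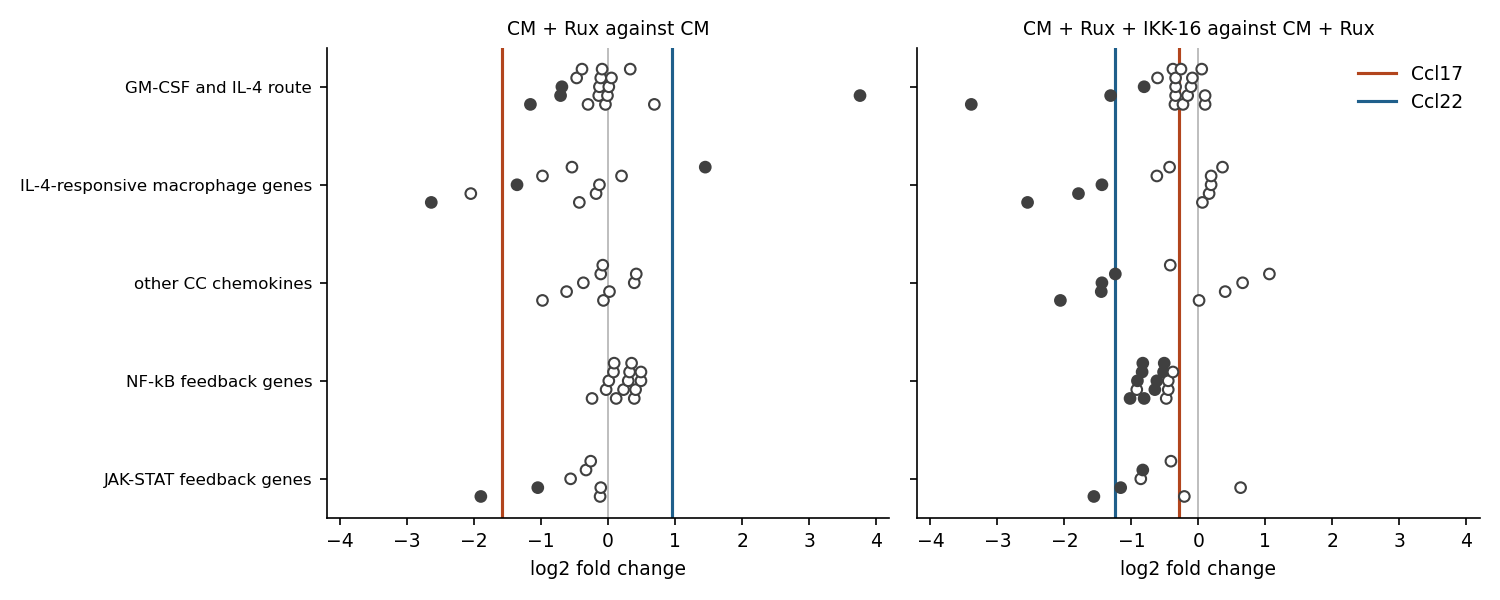
Log2 fold changes of the tested genes of 5 lists (rows) in CM + Rux against CM (left) and CM + Rux + IKK-16 against CM + Rux (right). Each circle is a gene, filled where it was called (adjusted p under 0.05 and log2 fold change beyond 0.5), and vertical lines give the values of Ccl17 (orange) and Ccl22 (blue). In the left plot no chemokine of the third row is filled. In the right plot 9 of the 14 NF-κB and 3 of the 7 JAK-STAT feedback genes are filled, all below 0. The point farthest right in the left plot is Csf2, which had at most 3 counts per sample in CM, so its size is not a measured fold.

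The genes with the most similar profiles differed between the chemokines. Likeness was the root mean square (RMS) difference of log2(CPM + 0.5) after each gene was centered on its own mean, and it is a description of shared libraries and treatments. Over the 11 samples with CM, Ccl17 was nearest to Gm48786 (RMS 0.36), Upp1 (0.42), Glipr2 (0.44), Socs2 (0.45) and Dhx58 (0.45), where the median over all tested genes was 1.08. All of these had lower means in CM + Rux than in CM, for example 15.0 and 4.11 CPM for Glipr2. Ccl22 was nearest to Timd4 (0.20), Il18 (0.25), Bmp1 (0.25), Igfbp7 (0.28) and Col4a1 (0.30), where the median was 0.66. Timd4, which encodes the phosphatidylserine receptor TIM-4, averaged 27.1 CPM in CM, 52.3 in CM + Rux, 20.5 with IKK-16 and 24.9 at the 2 h label. Over the same 11 samples Ccl17 and Ccl22 differed from each other by an RMS of 1.20, which put Ccl22 at place 9951 of 12371 in likeness to Ccl17 and Ccl17 at place 12234 in likeness to Ccl22. Since 6 of these samples are those by which the pair was chosen to differ, these places restate that choice.

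Over all 16 samples, where the step from media without CM dominates, Ccl17 was nearest to Mmp25 (RMS 0.41), Gja1 (0.52), Ddit4 (0.54), Abtb2 (0.55) and Rab44 (0.56), beside a median of 2.18. Mmp25, which encodes a membrane-bound metalloproteinase, averaged 53.0 CPM in CM, 19.2 in CM + Rux and 6.85 with IKK-16, and Gja1, the gene of connexin 43, averaged 145, 62.9 and 19.1 CPM in the same groups. Ccl22 was nearest to Il1b (0.53), Cxcl1 (0.56), Olr1 (0.60), Cxcl2 (0.65) and Trem1 (0.68), beside a median of 3.18. These include the cytokine IL-1β, a pair of neutrophil chemokines and the receptor TREM-1. With a pseudocount of 1 in place of 0.5, 2 of the 5 genes nearest to Ccl17 and 4 of the 5 nearest to Ccl22 were the same, and over the 11 samples with CM 3 of 5 and 5 of 5 were.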

How the data were processed

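mRNA of 16 BMDM samples was sequenced as stranded libraries. The deposited table holds raw fragment counts per gene, which the authors made by trimming reads with Trimmomatic 0.33, mapping them to GRCm38 with HISAT2 2.1.0 and counting mapped pairs with featureCounts 1.6.2 on the reverse strand. Symbols were matched by gene ID for 55141 of 55487 genes, and in no sample did the 346 others exceed 0.0459% of counts.

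Groups were taken from the sample labels. Genes over 1 CPM in at least 2 samples (12372) entered edgeR 4.0.16 (R 4.3.3), quasi-likelihood test, in 1 model of 6 groups, with RLE normalization and Benjamini-Hochberg adjustment over all tested genes. All adjusted p-values in the text are of this test unless DESeq2, the replicate block or another alternative is named. CPM values use RLE-scaled totals. Where a group had 0 counts, the fold is a lower bound against 3 counts per library, which covers counting error only. SE is the log2 fold change divided by the square root of F. Ratios within a sample were compared by exact two-sided permutation (scipy 1.17.1), after adding 0.5 counts. The test script was checked on simulated data.

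Ccl17 and Ccl22 and the gene lists were chosen with earlier results of these data known. Genes named beside them were the tested genes within 250 kb, the 5 genes most alike each member, a set of pathway genes, and genes of the lists that were called or not detected; some list members were picked for description after their values were seen. Alternatives were TMM, total counts alone, no filter, DESeq2 1.42.0, only the groups compared, a replicate block and leaving out each sample. Same-numbered samples deviated together in the comparison of CM + Rux + IKK-16 with CM + Rux (3 pairs, r of 0.586 to 0.703), of CM + Rux with CM (0.528 to 0.717), of CM + Rux + IKK-16 with CM (0.473 to 0.612), of CM + Rux with DMEM + Rux (0.163 to 0.368) and of CM + Rux + IKK-16 with DMEM + Rux (0.161 to 0.325), so numbers were taken to pair those samples. The source of the pairing is the data, since the labels give only numbers.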

Additional observations from a re-analysis of the deposited data

How the results depend on the processing

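Both chemokines kept their call and direction against media without CM under all 23 alternatives, and so did the lower Ccl22 with IKK-16 (log2 fold change -1.45 to -0.98, adjusted p from 1.14e-06 to 0.0356). For Ccl17 with IKK-16 the log2 fold change ran from -1.23 to 0.27 when single samples were left out, and it turned to 0.27 without CM + Rux replicate 2 and to 0.11 without CM + Rux + IKK-16 replicate 1. The 2 h comparison of Ccl22 with CM + Rux passed the threshold with total counts alone (-0.90, adjusted p = 0.0364), no filter (-0.83, adjusted p = 0.00159), DESeq2 (-0.82, adjusted p = 0.0295) and only the groups compared (-0.83, adjusted p = 0.0219), and ran from -1.06 to -0.62 when single samples were left out. It passed without CM replicate 2 or 3 or CM + Rux + IKK-16 replicate 1 or 3, although those samples are not in the contrast. The cause was not tested. The ratio of the chemokines at 2 h against 4 h ran from -0.97 to 0.30 and turned to 0.30 without CM + Rux 2 h replicate 2. Against CM, Ccl17 ran from -2.66 to -1.82 at the 2 h label and from -2.82 to -1.48 with IKK-16, both lowest without replicate 2 of the inhibitor group.

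With the replicate block, the 2 h comparison with CM + Rux passed for Ccl17 (-0.88, adjusted p = 0.0362) and Ccl22 (-1.0, adjusted p = 0.000395). With 2 pairs (r of 0.411 and 0.413) the numbers are not shown to pair those samples. The block changed no other call of the chemokines. The ratio with IKK-16 gave p = 0.25 in an exact paired permutation test, the smallest that 3 pairs allow.

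In the tested comparisons no total of called genes moved by over 1.5 times. In CM + Rux against CM the total went from 412 to 745 with the replicate block, to 269 higher and 416 lower with no filter, and to 82 higher and 161 lower without CM + Rux replicate 1. With total counts alone, the share of calls that were higher went from 46.4% to 25.0% in CM against DMEM (2584 to 1536 genes), from 47.1% to 26.7% in CM + Rux against DMEM + Rux, from 47.6% to 30.1% in CM + Rux + IKK-16 against DMEM + Rux, from 45.9% to 21.5% in CM + Rux 2 h against DMEM + Rux, from 54.0% to 44.0% in CM + Rux 2 h against CM + Rux, where the larger direction turned, and from 52.7% to 67.5% in CM + Rux + IKK-16 against CM + Rux. The shift in log2 fold changes was 0.311 in CM against DMEM, small beside those of the chemokines. No median of the 5 tested gene lists changed sign. Of the marker lists, the fibroblast median went from 0.19 to -0.12 in CM against DMEM and the macrophage median from 0.13 to -0.24 in CM + Rux 2 h against DMEM + Rux with total counts alone. With total counts alone the other CC chemokines in CM against DMEM gave 7 higher and 1 lower (Ccl25). Groups of 2 or 3 samples and the few counts of Ccl22 in DMEM limit the precision.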
